A study of Homo sapiens with 4 samples.

Results

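A set of 10 protein-coding genes that share the 3q26 to 3q27 region with YEATS2 was followed through a knockdown of YEATS2: PRKCI, ECT2, PIK3CA, ACTL6A, FXR1, SOX2, DCUN1D1, PARL, ABCC5 and SENP2, named here from the centromeric to the telomeric side. They were picked by symbol for their place on 3q and make up 10 of the 60623 genes in the count files and 10 of the 17058 genes with enough counts to be tested. The RNA-seq data came from BICR10, an established cell line of head and neck cancer, where YEATS2 was silenced with a short hairpin RNA carried by lentivirus. Of 4 libraries, 2 were from cells with a control hairpin (shControl) and 2 from cells with a hairpin against YEATS2 (shYEATS2), and both kinds of cells went through puromycin selection before harvest. The sources do not say which YEATS2 hairpin each library carried. The study speaks of biological replicates in general, but for these libraries the sources do not state whether the 2 of a group came from separate cultures. If they did not, the p-values measure only the spread between these samples, which may be technical. The comparison was used to see whether genes close to the silenced gene moved differently from genes farther away.

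Band 3q26 and the bands telomeric to it are often gained in squamous carcinomas, so that many genes of very different function are amplified together. YEATS2 itself encodes a histone reader, a protein that binds acylated lysines on histone tails and belongs to an acetyltransferase complex. A hairpin acts on its messenger RNA and not on its locus. Copy number in BICR10 was not analysed here.

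The libraries held between 11334133 and 47297970 read pairs assigned to genes, and both shControl libraries were deeper than both shYEATS2 libraries, so depth and knockdown cannot be told apart by design. Levels are given as CPM, counts relative to the size of the library, after scaling by the trimmed mean of M values (TMM). Folds come from edgeR's quasi-likelihood test, with p-values adjusted over all 17058 genes by the method of Benjamini and Hochberg, a gene being called at an adjusted p under 0.05. Keratin and other epithelial markers, 10 listed, summed to 526 to 531 CPM in the shControl libraries and 318 to 343 CPM in the shYEATS2 libraries. They did not all move one way: of 8 tested, 1 (12.5%) was called higher and 6 (75%) lower. Over all tested genes the shares were 22.6% and 23.6%. The log2 fold changes of these markers ran from -3.78 to 2.91. The squamous marker TP63 stayed at or under 0.26 CPM in every library. Fibroblast markers, 8 listed, summed to 6185 to 6260 CPM and 1996 to 2121 CPM, with the collagen genes high in this cancer line. Endothelial markers, 4 listed, summed to 35.5 to 36.4 CPM and 18.6 to 19.6 CPM, nearly all of it KDR, whereas 3 leukocyte markers stayed at or under 0.170 CPM. The part of these shifts in the results that follow was not tested, and in bulk RNA fewer cells of a type cannot be told apart from less RNA per cell.

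YEATS2 (ENSG00000163872, chr3:183697797-183812624, plus strand, GRCh38) had 66.1 and 66.7 CPM in the shControl libraries and 29.2 and 29.1 CPM in the shYEATS2 libraries. Its level was 43.95% of control, a log2 fold change of -1.19 ± 0.08 (SE, n = 2 and 2), with an adjusted p of 3.6e-21 in edgeR's quasi-likelihood test. Exons of YEATS2 share 1164 bases with YEATS2-AS1 on the other strand, an antisense gene with 16, 17, 5 and 1 counts that was not called (adjusted p = 0.131 in edgeR's quasi-likelihood test).

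All 10 neighbours were called, 7 higher and 3 lower after the knockdown, against 22.6% of all tested genes called higher, 23.6% called lower and 46.2% called in either direction. Among tested protein-coding genes alone, these shares were 24.3%, 28.2% and 52.5%. PIK3CA, SENP2, ECT2, PRKCI, ACTL6A, FXR1 and DCUN1D1 rose, and SOX2, PARL and ABCC5 fell. In each of the 10 genes the values of the 2 groups did not overlap, as was so upward for 35.3% and downward for 36.3% of all tested genes. Only SOX2 changed at least 2-fold, and 9.69% of all tested genes were called with a change of that size. The median log2 fold change over the 10 genes was 0.27 and the range ran from -1.24 to 0.65, beside a median of -0.01 over all tested genes.

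**Figure D1:**
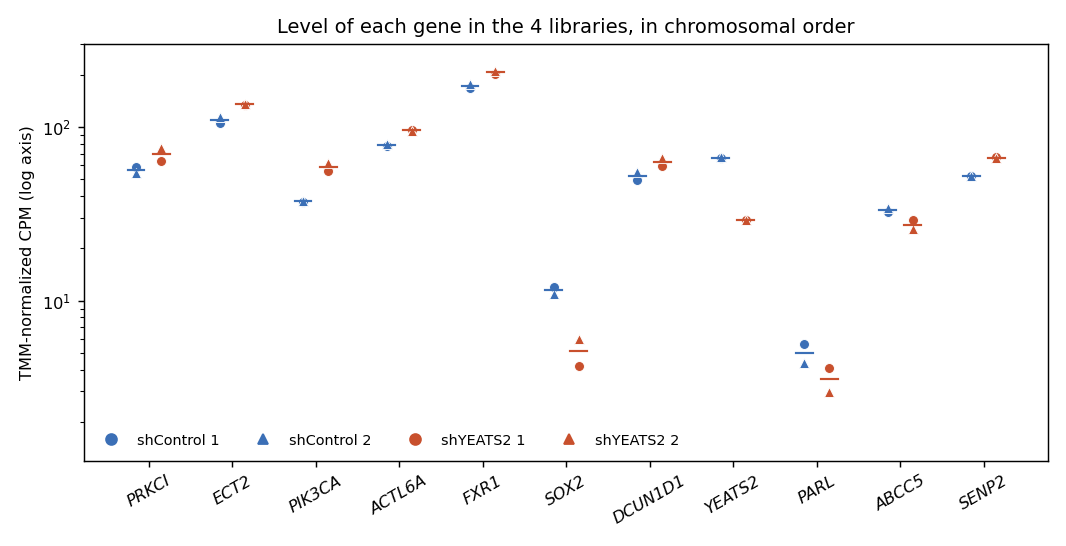
TMM-normalized CPM (log axis) of each of the 10 genes and YEATS2 in the 2 shControl and 2 shYEATS2 libraries, in chromosomal order, each point 1 library. The groups do not overlap in any of these genes, and SOX2 and YEATS2 show the widest gaps.

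The genes that fell are shown first with the bases before their start sites, because they include the gene with the largest change and the pair of the 10 that lies nearest to YEATS2. The sequences are the 250 bases 5′ of the RefSeq start on GRCh38.p14, on the strand of the gene. Capitals stand where a searched short motif was found on either strand.
SOX2 promoter, chr3:181711675-181711924, plus strand: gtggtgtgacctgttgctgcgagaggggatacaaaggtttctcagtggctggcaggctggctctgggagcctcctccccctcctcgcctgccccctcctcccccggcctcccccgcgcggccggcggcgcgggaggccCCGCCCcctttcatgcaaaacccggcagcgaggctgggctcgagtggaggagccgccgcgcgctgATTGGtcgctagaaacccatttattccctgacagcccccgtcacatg
PARL promoter, chr3:183884881-183885130, minus strand: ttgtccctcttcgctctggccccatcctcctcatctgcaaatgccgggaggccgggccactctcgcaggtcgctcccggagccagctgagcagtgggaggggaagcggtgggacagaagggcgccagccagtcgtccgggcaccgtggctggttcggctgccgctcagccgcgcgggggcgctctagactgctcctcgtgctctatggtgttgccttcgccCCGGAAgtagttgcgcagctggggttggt
ABCC5 promoter, chr3:184017885-184018134, minus strand: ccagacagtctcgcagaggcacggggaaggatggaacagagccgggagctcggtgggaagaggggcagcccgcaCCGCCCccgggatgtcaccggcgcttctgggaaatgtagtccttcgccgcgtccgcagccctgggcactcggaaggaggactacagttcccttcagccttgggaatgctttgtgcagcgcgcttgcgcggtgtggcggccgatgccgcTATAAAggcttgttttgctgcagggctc
The capitals mark a GC box, searched as the letters GGGCGG, or a box of the letters CCAAT. They also mark a TATA box, for which the search used the letters TATAAA, and an ETS core, with the letters CCGGAA. The motifs did not overlap in these windows. An E-box (CACGTG), a CRE (TGACGTCA) and a CHR element (TTTGAA) were also searched and were not found in them. The SOX2 window holds a GC box and a CCAAT box, the ABCC5 window a GC box and a TATA box, and the PARL window a single ETS core. Their GC contents were 68.8%, 64.8% and 68.0%, beside a median of 58.0% over 35114 promoter windows of the same length. Among those windows 42.6% hold a GC box, 32.0% a CCAAT box, 10.7% a TATA box and 14.5% an ETS core, so none of these matches is rare, and a match is a description of letters and not of a bound site. Of the 10 genes and YEATS2, 9 of 11 had a RefSeq window, and ACTL6A and SENP2 had none. The only YEATS2 window, chr3:183709989-183710238, lies inside the gene body given above, so it does not describe the start of the whole gene. PRKCI, PIK3CA, DCUN1D1, FXR1 and ECT2, which rose, each had at least 1 GC box in every window listed for them.

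SOX2 (ENSG00000181449, chr3:181711925-181714436, plus strand), a transcription factor of stem cells and of squamous epithelium, had 11.9 and 11.0 CPM in shControl and 4.18 and 6.02 CPM in shYEATS2. The highest shYEATS2 value was well under the lowest shControl value. SOX2 fell by 1.24 on the log2 scale ± 0.15 (SE, n = 2 and 2, 95% interval -1.53 to -0.94), to 42.4% of control, with an adjusted p of 1.2e-10 in edgeR's quasi-likelihood test. It rests on 541, 415, 106 and 71 counts. SOX2 lies 1.98 Mb from YEATS2 on the centromeric side, inside SOX2-OT on the same strand, which shares no exon base with it and held 29, 21, 11 and 3 counts.

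PARL (ENSG00000175193, chr3:183829271-183884933, minus strand), a rhomboid protease of the mitochondrial inner membrane, is the nearest of the 10 genes, 16.6 kb telomeric of YEATS2. It had 5.60 and 4.37 CPM in shControl and 4.07 and 2.97 CPM in shYEATS2, so the groups touched closely without crossing. The log2 fold change was -0.45 ± 0.19 (SE, n = 2 and 2, 95% interval -0.83 to -0.08), with an adjusted p of 0.042 in edgeR's quasi-likelihood test. This rests on 254, 165, 103 and 35 counts, and 47.2% of the exon bases of PARL are shared on the same strand with the readthrough gene AC131160.1, which had 0, 0, 0 and 1 counts. Read pairs over those 1071 shared bases may stand among the ambiguous pairs, which a counter gives to no gene, 4.31 to 4.61% of all pairs per library, so the level of PARL is uncertain. The call was lost under 7 of 13 alternative settings, among them without shControl replicate 1 (log2 fold change -0.26, adjusted p = 0.420 in edgeR's quasi-likelihood test), without shYEATS2 replicate 2 (-0.31, adjusted p = 0.234) and in DESeq2 (-0.49, adjusted p = 0.268), while without shYEATS2 replicate 1 the log2 fold change was -0.77.

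ABCC5 (ENSG00000114770, chr3:183919934-184017939, minus strand), an exporter of cyclic nucleotides and of nucleotide analogues, lies 107 kb telomeric of YEATS2. It had 32.1 and 34.0 CPM in shControl and 29.01 and 25.8 CPM in shYEATS2. The highest shYEATS2 library stood just under the lowest shControl library, and the log2 fold change was -0.25 ± 0.09 (SE, n = 2 and 2, 95% interval -0.43 to -0.08), with an adjusted p of 0.012 in edgeR's quasi-likelihood test. ABCC5 was not called under 4 of 13 alternatives. The log2 fold change was much the same without shControl replicate 2 (-0.23, adjusted p = 0.149 in edgeR's quasi-likelihood test), in DESeq2 (-0.27, adjusted p = 0.089) and after thinning every library to the smallest (-0.25, adjusted p = 0.144), but was only -0.12 (adjusted p = 0.260) when library totals alone were used for scaling.

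PIK3CA (ENSG00000121879, chr3:179148114-179240093, plus strand), which encodes the catalytic p110-alpha subunit of phosphoinositide 3-kinase, had 37.1 and 37.5 CPM in shControl and 56.1 and 61.9 CPM in shYEATS2. Both shYEATS2 libraries stood far above the tight control pair. PIK3CA rose by 0.65 ± 0.08 on the log2 scale (SE, n = 2 and 2, 95% interval 0.50 to 0.80), to 157% of control, with an adjusted p of 4.3e-11 in edgeR's quasi-likelihood test. This was the largest rise of the 10 genes. It shares 19.8% of its exon bases with KCNMB3 on the other strand, which was not called (log2 fold change -0.04, adjusted p = 0.897 in edgeR's quasi-likelihood test). PIK3CA lies 4.46 Mb centromeric of YEATS2.

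SENP2 (ENSG00000163904, chr3:185582496-185633551, plus strand), a protease that removes SUMO from proteins, had 52.2 and 52.1 CPM in shControl and 66.9 and 66.0 CPM in shYEATS2. The spread within each group was small beside the gap between them. SENP2 rose by 0.35 ± 0.07 (SE, n = 2 and 2, 95% interval 0.21 to 0.49), to 128% of control, with an adjusted p of 3.1e-05 in edgeR's quasi-likelihood test. Of the 10 genes it is the most telomeric, 1.77 Mb beyond YEATS2.

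DCUN1D1 (ENSG00000043093, chr3:182938074-182985953, minus strand), a scaffold that speeds the joining of NEDD8 to cullins, is the nearest on the centromeric side, 0.71 Mb away. It had 49.3 and 54.6 CPM in shControl and 59.4 and 65.8 CPM in shYEATS2. Both shYEATS2 libraries were higher, and the log2 fold change was 0.26 ± 0.07 (SE, n = 2 and 2, 95% interval 0.11 to 0.41; adjusted p = 0.0025 in edgeR's quasi-likelihood test). Without shControl replicate 1 the adjusted p in edgeR's quasi-likelihood test was 0.192, at a log2 fold change of 0.19.

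FXR1 (ENSG00000114416, chr3:180868141-180982753, plus strand), an RNA-binding protein of the fragile X family, had 167 and 176 CPM in shControl and 203 and 209 CPM in shYEATS2. It rose by 0.27 ± 0.06 (SE, n = 2 and 2; adjusted p = 2.0e-04 in edgeR's quasi-likelihood test), with 95% interval 0.14 to 0.39. ACTL6A (ENSG00000136518, chr3:179562886-179588407, plus strand), an actin-related subunit of chromatin-remodelling complexes, had 77.8 and 79.4 CPM in shControl and 95.7 and 95.3 CPM in shYEATS2. Within each group its libraries lay almost together. Its rise was 0.28 ± 0.07 (SE, n = 2 and 2; adjusted p = 2.8e-04 in edgeR's quasi-likelihood test), with 95% interval 0.15 to 0.41. FXR1 lies 2.72 Mb and ACTL6A 4.11 Mb centromeric of YEATS2.

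ECT2 (ENSG00000114346, chr3:172750682-172821474, plus strand), an exchange factor for small GTPases that acts in cytokinesis, had 105 and 114 CPM in shControl and 134 and 136 CPM in shYEATS2. The control libraries differed from each other more than the shYEATS2 libraries did. ECT2 rose by 0.30 ± 0.06 (SE, n = 2 and 2; adjusted p = 8.3e-05 in edgeR's quasi-likelihood test), with 95% interval 0.17 to 0.42, and without shControl replicate 1 the log2 fold change was 0.23 (adjusted p = 0.052). PRKCI (ENSG00000163558, chr3:170222424-170305977, plus strand), an atypical protein kinase C of cell polarity, had 58.4 and 54.0 CPM in shControl and 63.8 and 75.2 CPM in shYEATS2. Here the shYEATS2 libraries differed from each other more than the control libraries did. PRKCI rose by 0.29 ± 0.07 (SE, n = 2 and 2; adjusted p = 8.6e-04 in edgeR's quasi-likelihood test), with 95% interval 0.14 to 0.44, and without shControl replicate 2 the log2 fold change was 0.23 (adjusted p = 0.078). Without shYEATS2 replicate 2 the log2 fold change of PRKCI fell to 0.18, still called, and without shYEATS2 replicate 1 it was 0.40. ECT2 lies 10.9 Mb and PRKCI 13.4 Mb centromeric of YEATS2.

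Divided by the length of exons, the levels in shControl ran from ACTL6A at 21.4 CPM per kb through ECT2 at 19.9, FXR1 at 14.4, PRKCI at 9.73, SENP2 at 7.34, DCUN1D1 at 6.25, SOX2 at 4.56, ABCC5 at 2.91 and PARL at 2.20 to PIK3CA at 2.17 CPM per kb. PARL and PIK3CA were the only neighbours in this order whose libraries overlapped. The place of PARL is uncertain because of its shared exon bases. Divided by its unshared bases alone, its shControl level was 4.16 CPM per kb, above ABCC5 and PIK3CA. In shYEATS2 the first 6 kept their places, PIK3CA came next at 3.43 CPM per kb, and SOX2, at 2.03 CPM per kb, was followed only by PARL at 1.55 CPM per kb.

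**Figure D2:**
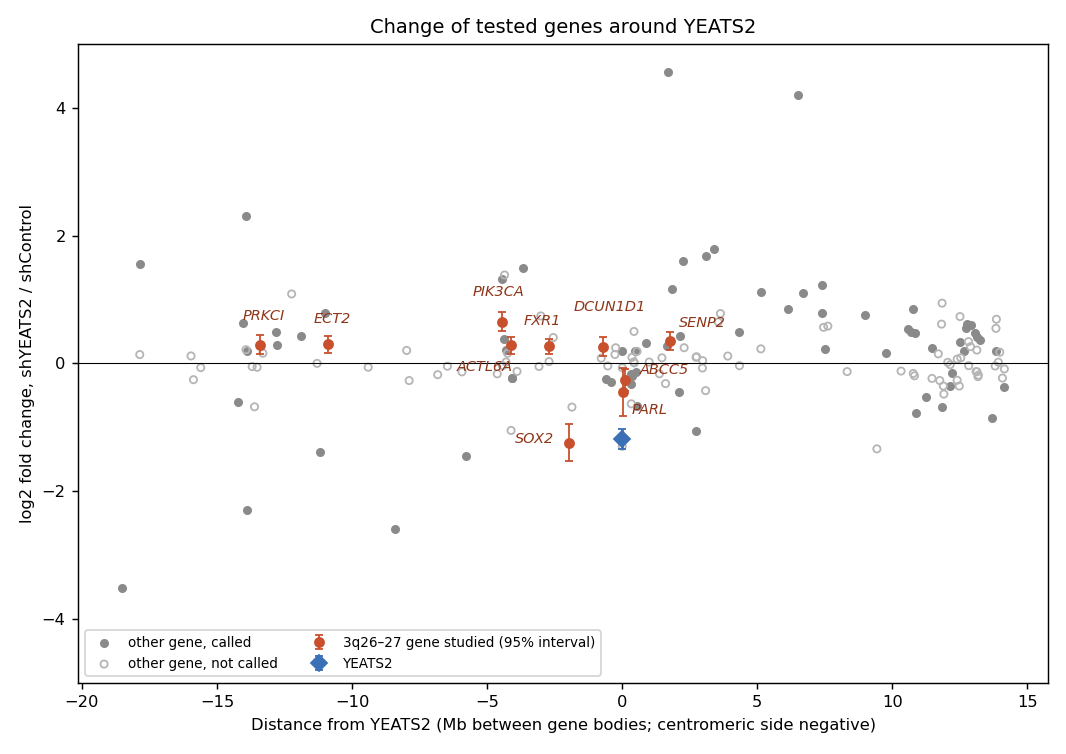
Log2 fold change of tested genes against distance from YEATS2 in Mb between gene bodies, centromeric side negative, with the 10 genes in red (bars, 95% interval), YEATS2 in blue and other genes filled where called. Within 2 Mb, PARL, ABCC5 and SOX2 lie below 0 and DCUN1D1 and SENP2 above it, and the 5 genes farther away lie above it.

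All 5 genes beyond 2 Mb of YEATS2 rose, and their median log2 fold change was 0.29. Of the 5 genes within 2 Mb, DCUN1D1 and SENP2 rose and SOX2, ABCC5 and PARL fell, with a median of -0.25. With 5 genes on each side of the limit, this split is a description, and the other genes of the region place it. All 35 tested genes within 2 Mb, these 5 included, had 8 called higher and 10 called lower, or 51.4% called, with a median of 0.01. That share is near the 46.2% of all tested genes. Of the 30 protein-coding genes among them 60% were called, beside 52.5% of all tested protein-coding genes. The difference was not tested, and neither share is read as a result about the neighbourhood. From PRKCI to SENP2, the 62 tested genes that were not among the 10 had 13 called higher and 12 called lower, 40.3% in all, with a median of 0.01.

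Closer to YEATS2, 17 genes were tested within 0.5 Mb, of which 2 (11.8%) were called higher and 6 (35.3%) lower, with a median of -0.07. Those shares were 22.6% and 23.6% over all tested genes. The share called in either direction, 47.1%, is near the 46.2% of all tested genes. Of 12 genes on the telomeric side 1 (8.3%) was called higher and 5 (41.7%) lower, and of 4 on the centromeric side 1 (25%) and 1 (25%). The remaining gene, YEATS2-AS1, overlaps YEATS2 and was not called. Between 2 and 10 Mb away, 21 of 59 tested genes (35.6%) were called higher and 6 (10.2%) lower, 45.8% in all, with a median of 0.20. From 10 to 20 Mb, where ECT2 and PRKCI lie, 24 of 78 (30.8%) were called higher and 11 (14.1%) lower, 44.9% in all, with a median of 0.10. Over 20 Mb away on chromosome 3, 176 of 758 were called higher and 179 lower, with a median of -0.01. On other chromosomes 3618 of 16059 were higher and 3807 lower. These splits moved with the scaling. With library totals alone the median of all tested genes shifted to 0.13, 31.9% of all tested genes were called higher and 15.0% lower, and the genes within 0.5 Mb had 4 called higher and 1 lower. With DESeq2, which called 13.9% of its genes higher and 16.6% lower, the same window had 1 called higher and 2 lower. With library totals alone the rises of DCUN1D1 and FXR1 both came to 0.40, over 1.5 times their values after TMM scaling. Under both settings, the 7 rising genes among the 10 were still called higher, and of the 3 falling genes only SOX2 was still called.

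**Figure D3:**
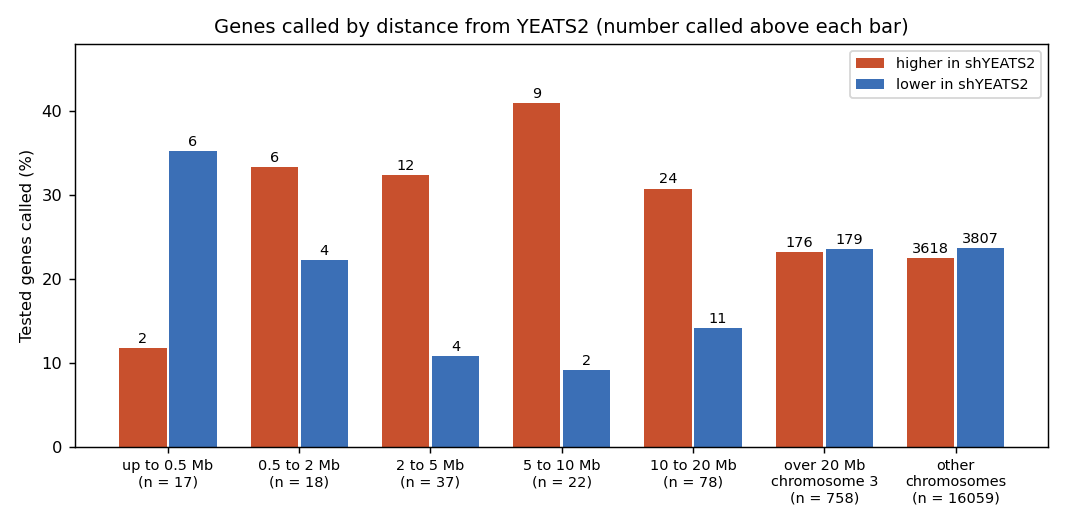
Share of tested genes called higher and lower (percent) in bins of distance from YEATS2, with the number called above each bar. The bin up to 0.5 Mb has 2 called higher and 6 lower, and the bin over 20 Mb on chromosome 3 has 176 and 179.

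Next to YEATS2, KLHL24, an adaptor of a cullin ligase and the nearest tested protein-coding gene on the centromeric side (13.3 kb), rose by 0.20 ± 0.08 (SE, n = 2 and 2; adjusted p = 0.031 in edgeR's quasi-likelihood test). MAP6D1, 3.30 kb from YEATS2 on the telomeric side, had only 19, 21, 11 and 6 counts and a log2 fold change of -0.07 ± 0.53 (adjusted p = 0.929 in edgeR's quasi-likelihood test). It too shares exons with AC131160.1. The interval of MAP6D1 is wide, and neither a rise nor a fall was detectable at this depth.

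Within 2 Mb of YEATS2, the largest rises among called genes of at least 10 CPM were in IGF2BP2, an mRNA-binding protein, SENP2 and MAGEF1. IGF2BP2, 1.83 Mb telomeric and so close to SENP2, went from 41.3 to 92.4 CPM, a log2 fold change of 1.16 ± 0.07 (SE, n = 2 and 2; adjusted p = 7.4e-23 in edgeR's quasi-likelihood test). MAGEF1 went from 29.6 to 37.4 CPM (0.32 ± 0.09). The largest falls at that level, YEATS2 aside, were in EIF2B5, a subunit of the translation factor eIF2B (46.1 to 36.7 CPM, -0.32 ± 0.08), B3GNT5, a glycosyltransferase (92.3 to 75.7 CPM, -0.29 ± 0.07), and ABCC5. Under that level, SOX2 (-1.24, mean 8.28 CPM), CLCN2 (-0.66, mean 2.82 CPM) and PARL (-0.45, mean 4.25 CPM) were called and fell further. LIPH, a lipase gene under that level and singled out after its values were seen, had 4, 5, 55 and 39 counts.

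Of 43 tested genes of a list of other 3q26 to 3q29 genes often named with the gain, 10 were called higher and 7 lower, or 39.5%. Their median log2 fold change was -0.04. The share called was 46.2% among all tested genes and 52.5% among tested protein-coding genes. At a mean of at least 10 CPM over the 4 libraries, the largest rises were in MECOM, PAK2 and PLD1. MECOM, a transcription factor, went from 13.0 to 20.4 CPM (0.63 ± 0.11, SE, n = 2 and 2). The kinase PAK2 went from 151 to 229 CPM (0.60 ± 0.06), and the phospholipase PLD1 from 13.0 to 17.2 CPM (0.43 ± 0.11). Under that level, CLDN1 rose by 4.21 on the log2 scale (0.68 to 12.5 CPM) and PEX5L by 1.49, and TNFSF10 fell by 1.39. MCCC1, a subunit of methylcrotonoyl-CoA carboxylase (41.8 to 35.2 CPM, -0.24 ± 0.08), MRPL47, a protein of the mitochondrial ribosome (55.7 to 47.8 CPM, -0.23 ± 0.08), and NDUFB5, a subunit of respiratory complex I (109 to 93.3 CPM, -0.23 ± 0.07), were the largest falls among genes of at least 10 CPM. MRPL47 lies beside ACTL6A and shares 123 exon bases with it on the other strand, and the neighbours moved in opposite directions.

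The 10 genes act in separate pathways. Of 64 tested relatives and partners of their proteins, 15 were called higher and 19 lower, or 53.1%, with a median log2 fold change of -0.05. Of all tested genes 22.6% were called higher, 23.6% lower and 46.2% in either direction. Among tested protein-coding genes, as these are, the shares were 24.3%, 28.2% and 52.5%, so 53.1% is near that background. Around PIK3CA, the regulatory subunit PIK3R1 fell by 1.59 ± 0.07 (163.5 to 54.9 CPM; adjusted p = 2.2e-26 in edgeR's quasi-likelihood test, n = 2 and 2), and AKT1 fell by 0.47 on the log2 scale, while the catalytic subunit PIK3CD rose by 0.50. SOX4 and SOX9, the tested relatives of SOX2, had log2 fold changes of -0.08 and -0.12 and were not called, and 2 of 10 tested remodelling partners of ACTL6A fell, SMARCA4 by 0.25 and ACTB, which encodes beta-actin, by 0.62.

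Around PRKCI, the polarity scaffold PARD3 rose by 0.91 ± 0.07 (34.6 to 64.8 CPM; adjusted p = 9.0e-17 in edgeR's quasi-likelihood test, n = 2 and 2). PARD6B and the related kinase PRKCZ rose by 1.08 and 1.34, both at under 5 CPM. PARD6G, under a mean of 10 CPM over the 4 libraries, fell by 1.94. Around ECT2, RACGAP1, its partner at the midzone of dividing cells, rose by 0.66 ± 0.07 (64.7 to 102 CPM) and KIF23 by 0.19, whereas the GTPases RHOA, RAC1 and CDC42 fell by 0.20, 0.19 and 0.22. Around DCUN1D1, the paralogue DCUN1D3 rose by 0.72 ± 0.08 (28.9 to 47.7 CPM), DCUN1D5 by 0.31, the NEDD8 conjugating enzyme UBE2M by 0.15 and CUL3 by 0.49, and CUL1 and RBX1 fell by 0.42 and 0.43.

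Around FXR1, FXR2 rose by 0.20, CYFIP1 fell by 0.18 and FMR1 was not called. Of 9 tested SUMO genes around SENP2, SENP5, also on 3q, rose by 0.48 and SUMO2 fell by 0.20. Around PARL, its substrates PINK1 and PGAM5 rose by 0.34 and 0.18 and STARD7 fell by 0.38, as did RHBDF1, an inactive rhomboid, by 0.40. Around ABCC5, the transporters ABCC2 (409 to 271 CPM, -0.59 ± 0.06), ABCC3 (-0.56) and ABCC4 (-0.28) fell with it, and ABCG2 rose by 1.53 from 1.49 CPM.

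**Figure D4:**
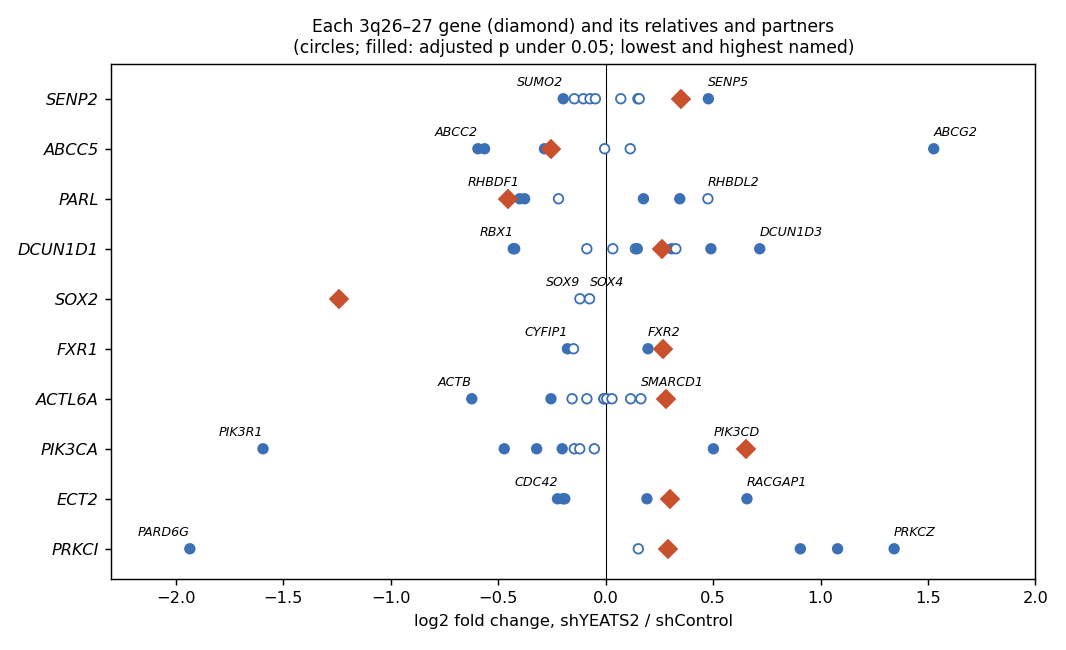
Log2 fold change of each of the 10 genes (diamond) and of the tested relatives and partners of its protein (circles, filled at adjusted p under 0.05; lowest and highest named). PIK3CA lies at 0.65 and PIK3R1 at -1.59, and PARD6G, under a mean of 10 CPM, lies lowest of all at -1.94.

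Chromosome 3 as a whole gave similar counts. Its 930 tested genes other than YEATS2 had 229 called higher and 206 lower, 46.8% in all, while the medians of the other chromosomes ran from -0.27 on chromosome 15 to 0.15 on chromosome 6.

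**Figure D5:**
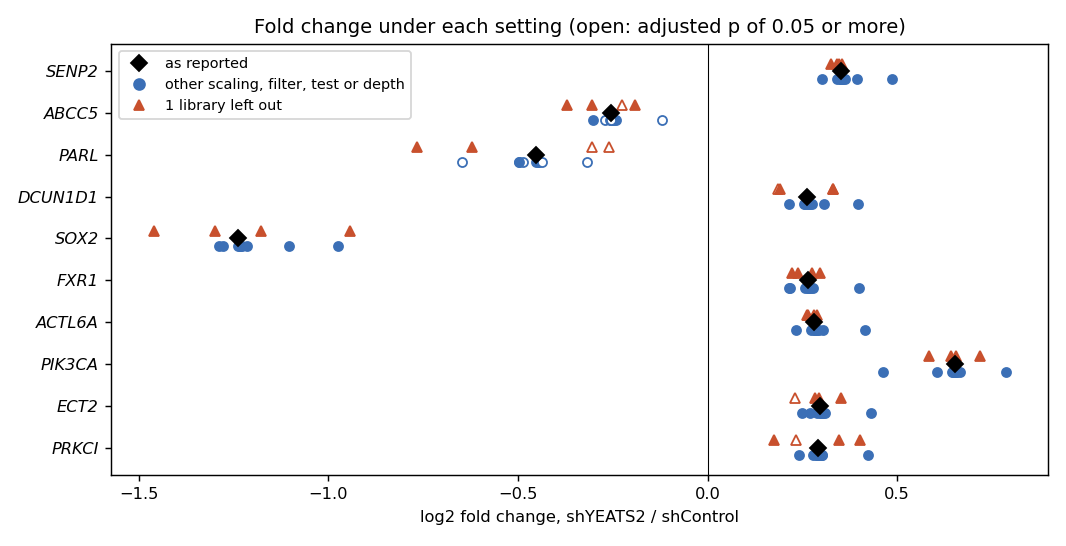
Log2 fold change of each of the 10 genes under each processing setting, with open marks at an adjusted p of 0.05 or more. No value crosses 0, and PARL and ABCC5 hold most of the open marks.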

How the data were processed

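The deposited files hold raw counts of read pairs per gene, which the authors made by aligning stranded paired-end reads to GRCh38 with STAR and counting with HTSeq (tools and build as in the submitters' processing notes); the annotation release and strand setting are not given in the sources used here. Read pairs given to no single gene (15.3 to 16.5% per library) were left out. Positions came from GENCODE 44, and promoters from RefSeq. In R 4.3.3, edgeR 4.0.16 was used with filterByExpr, TMM scaling, a robust quasi-likelihood fit and Benjamini-Hochberg adjustment, and the code was tested on simulated data. Standard errors are the log2 fold change divided by the root of F. DESeq2 1.42.0, limma-voom (limma 3.58.1), other scalings and filters, thinning to the smallest library, a replicate block and leaving out each library were alternatives. Named genes were the 10 genes, those flanking YEATS2 up to ABCC5, and the 3 largest rises and 3 largest falls within 2 Mb and in each list, among called genes of at least 10 CPM whose groups did not overlap. Some list members are not reported here. The genes and lists were chosen with earlier results of these data known. With 2 libraries a group an exact permutation test cannot go below 0.333.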

Additional observations from a re-analysis of the deposited data

How the results depend on the processing

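Of 130 values for the 10 genes under 13 alternatives, 116 kept direction and call, 14 lost the call and none reversed. The 7 genes that rose stayed 7 under every scaling, filter and test, and 5 to 7 when single libraries were left out. The 3 that fell became 1 under library totals alone, DESeq2, thinning and an adjusted p under 0.01. The median over the 10 genes, 0.27, became 0.41 under library totals alone and 0.22 to 0.29 without single libraries. Of 7876 genes called, DESeq2 gave 5240 and thinning 4879. Of 18 genes called within 2 Mb, DESeq2 gave 10, thinning 8, an adjusted p under 0.01 10, a window of 0.5 Mb 8 and of 5 Mb 34, and leaving out single libraries 9 to 18. The median within 2 Mb, 0.01, became 0.14 under library totals alone, -0.069 within 0.5 Mb, 0.084 within 5 Mb and -0.11 to 0.058 without single libraries. The cause was not tested. The labels do not say whether libraries of the same number were paired across the groups. The differences between libraries 1 and 2 in each group had a correlation of -0.02 over tested genes, which cannot settle this. With the library numbers as a replicate block 8012 genes were called and the median over the 10 genes was 0.28. Leaving out PARL, an alternative chosen after seeing the data, gave a median of 0.28 and 2 genes lower. PARL rests on 35 counts in the shallowest library, which limits its precision.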
